A study of Medicago ruthenica with 9 samples.

Results

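Leaves of drought-stressed plants were compared with leaves of watered control plants in Medicago ruthenica, a forage legume that lives for several years, by poly(A) RNA sequencing. The comparison used 6 of the 9 libraries of the series, 3 of drought stress (DS) and 3 of control (CK), and took in every unigene with at least 1 TPM (a transcript abundance corrected for length and scaled to the library) in at least 3 libraries, which kept 44538 of 52457 unigenes. A unigene is the longest transcript of a cluster of the de novo assembly and is written here with its DN number, without the prefix TRINITY_. Its symbol is that of the closest SwissProt entry, so unigenes may share a symbol, and reads of close paralogs, alleles or unigenes of 1 component cannot be separated in these values. DS plants went 15 days without water, by which time relative soil moisture was 20%. CK plants were watered every 3 days and kept above 80%. All groups were of 1 cultivar, which the sources used here do not name, grew at 8 plants to a pot, were 4 weeks old when treatment began and were given no nutrients. DS and CK leaves were harvested on the same day, at an hour that is not given in the sources used here. A further 3 libraries of rewatered plants (RW) entered the filter of 1 TPM in 3 libraries, the shared estimate of the spread and the checks below. RW plants also went 15 days without water, and their leaves were collected 2 days after rewatering. The labels call the replicates biological but do not say whether each came from its own plant or pot, and the p-values below therefore reflect only how much these libraries varied. Sequencing depth is lost in TPM values and is unknown here, which leaves counting error without an interval.

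Water loss lets abscisic acid accumulate in leaves, which closes stomata and turns on protective genes, while jasmonate, calcium and MAP kinase signals carry related stress responses. Leaf gene expression also follows the circadian clock, in which the morning factor LHY and its REVEILLE relatives alternate with pseudo-response regulators through the day and with the evening complex of ELF3, ELF4 and LUX. In a drying leaf, light continues to be absorbed while carbon dioxide becomes short, and the chloroplast adjusts its pigments and protective proteins.

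The study designed quantitative PCR primers for some of these unigenes, and the pairs shown mark the transcripts of 2 that were higher and 2 that were lower in DS in the results below. PUMP5 (DN21990_c1_g1) encodes a mitochondrial uncoupling protein, TIFY10A (DN16559_c0_g6) a repressor of jasmonate responses, CP12-2 (DN21723_c1_g3) a small regulator of the Calvin cycle and PFE2 (DN22246_c0_g1) an iron-storing ferritin of the chloroplast. Each primer is written 5′ to 3′, and no base is capitalised because none was singled out.
PUMP5 forward: ggttttgttgaaggtggtat
PUMP5 reverse: gctgaggaaccggagtagac
TIFY10A forward: tcatcaactatgtctacctc
TIFY10A reverse: tgttgcagactgtgaagaag
CP12-2 forward: accccaagcttctcttcaac
CP12-2 reverse: ctgggtcatcagcacatgtc
PFE2 forward: ctctcttcaattccgaaaac
PFE2 reverse: ggcagcttcagattcaacat

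PUMP5 was measured at 1464.6, 1737.9 and 1884.1 TPM in the DS libraries of replicates 1, 2 and 3, against 195, 150 and 158 TPM in the CK libraries. CP12-2 was measured at 255, 163 and 238 TPM in DS and 592, 640 and 729 TPM in CK. PUMP5 was the more abundant of the pair in DS while CP12-2 was in CK. TIFY10A was measured at 1345, 1238 and 867 TPM in DS and 61.2, 106 and 73.7 TPM in CK. PFE2 reached 154, 209 and 80.5 TPM in DS, against 867, 423 and 450 TPM in CK. On the log2(TPM + 1) scale used for every fold change here, which understates the change of low unigenes, these differences (DS minus CK) were 3.33 for PUMP5, 3.84 for TIFY10A, -1.60 for CP12-2 and -1.99 for PFE2. The limma adjusted p was 2.33e-05 for PUMP5, 6.25e-05 for TIFY10A, 0.00409 for CP12-2 and 0.0178 for PFE2. Later values also run from replicate 1 to replicate 3.

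A unigene was called, and is said to have risen or fallen, where its limma adjusted p was below 0.05 and its log2 fold change exceeded 1 in either direction. Of all tested unigenes, 4.96% were called, 2.39% as higher in DS (1066) and 2.57% as lower in DS (1143). Counts of list members at an unadjusted limma p under 0.05 are given below without a minimum fold change. Of all 44538 tested unigenes, 9193 passed that rule in either direction. With the minimum fold change kept, 2377 of these were higher and 3981 lower, so lower was the commoner direction among all tested unigenes. The unadjusted counts of a list are given as description, without a share by direction over all tested unigenes, and are not results about its members. The DS and CK libraries did not overlap for 26.9% of all tested unigenes, in either direction. They did not overlap for any called unigene, and the rule for naming unigenes required it. The median log2 fold change over all tested unigenes was -0.19. It moved to -0.05 under median-of-ratios scaling and to -0.04 under quantile normalization, where the calls became 1338 higher and 768 lower, and 1222 higher and 782 lower. Without CK replicate 3 there were 570 higher and 352 lower calls, without DS replicate 2 there were 644 and 417, without CK replicate 2 there were 725 and 518, and the lower calls numbered 586 without DS replicate 1. Calls that held without each of the 9 libraries in turn and under both scalings numbered 497 higher and 266 lower, and the unigenes named below were among them except where a lost call is stated. Such calls are said here to have held in all 11 refits. In bulk leaf RNA, fewer cells of a type and less RNA per cell cannot be told apart.

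The called unigenes made up different parts of the RNA pool. Those called higher took 12.9%, 15% and 12.3% of summed TPM in DS, against 2.85%, 2.76% and 2.75% in CK. Those called lower took 1.62%, 1.22% and 1.77% in DS, against 5.67%, 6.06% and 6.23% in CK. These sums describe the calls that chose them and were not tested. The median absolute log2 fold change was 2.17 among unigenes that rose and 1.80 among those that fell. A log2 fold change beyond 4 in size was found for 102 unigenes that rose and 17 that fell. Among the 1487 unigenes with a mean of 100 TPM or more over the DS and CK libraries, 13.4% rose and 4.03% fell. Among the 11453 with a mean between 5 and 20 TPM, 2.25% rose and 4.06% fell. This mean includes the DS values, so a rise in DS itself moves a unigene to a higher class. These shares therefore do not show that unigenes abundant in watered leaves rose more often.

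**Figure D1:**
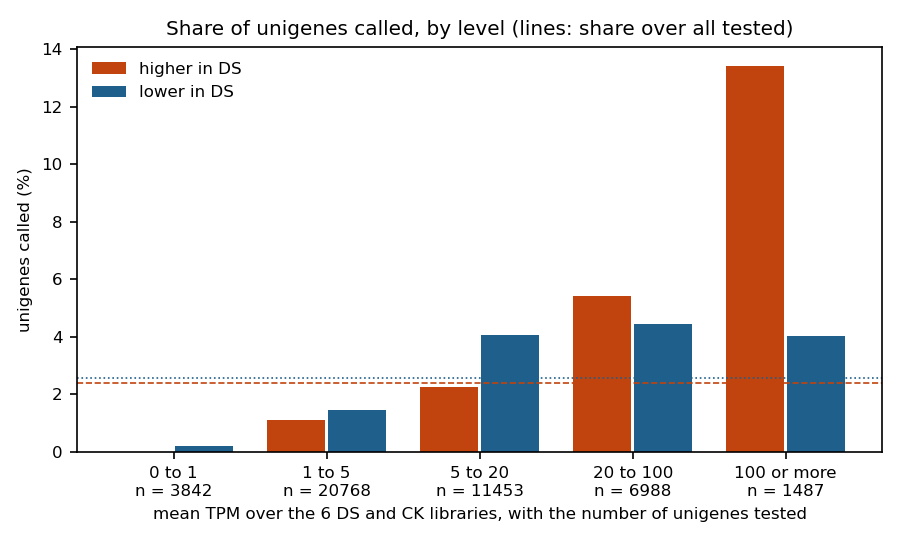
Percentage of tested unigenes called higher in DS (orange bars) or lower in DS (blue bars) against their mean TPM over the 6 DS and CK libraries, with the shares over all tested unigenes as a dashed and a dotted line. The share called higher grows with level to 13.4% at 100 TPM or more, while the share called lower is 4.06%, 4.45% and 4.03% in the 3 upper classes. The level includes the DS values, so a rise in DS itself raises it.

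Some unigenes were close to absent in the watered leaf. In all, 30 unigenes had at least 5 TPM in each DS library and under 0.5 TPM in each CK library, and 18 of them had a described protein. CYP94C1 (DN12573_c0_g1), a cytochrome P450 that oxidises and inactivates jasmonate conjugates in Arabidopsis, was at 52.5, 89.1 and 40.2 TPM in DS and 0, 0.05 and 0.1 TPM in CK. SCL14 (DN23197_c0_g1), a GRAS transcription factor, was at 32.2, 129 and 44.3 TPM in DS and 0.27, 0.06 and 0.47 TPM in CK. CYP79D3 (DN13576_c0_g4), annotated as an isoleucine N-monooxygenase of the kind that starts cyanogenic glucoside synthesis, was at 27.5, 10.5 and 5.81 TPM in DS and was listed at 0 in every CK library. The same rule with the groups exchanged found 2 unigenes, SAUR50 (DN22143_c0_g2) and a unigene with no named protein. SAUR50 belongs to a family of auxin-induced growth proteins. It was at 0.2, 0.45 and 0.36 TPM in DS, against 6.34, 29.9 and 18.8 TPM in CK, and its call was lost in 5 refits.

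The largest increases are given by log2 fold change. DN17085_c1_g4, which encodes an ALP1-like protein related to transposase-derived nucleases, was at 530, 680 and 551 TPM in DS and 0.57, 1.09 and 1.29 TPM in CK, a log2 fold change of 8.22 (limma adjusted p = 1.18e-06). DN13880_c0_g2, of the UPF0496 family of proteins with no assigned function, was at 268, 507 and 176 TPM in DS and 0.3, 0.12 and 0.17 TPM in CK. Both were at or below 1.29 TPM in every CK library. NUDT18 (DN18666_c0_g2), a nudix hydrolase that cleaves nucleoside diphosphate compounds, was at 440, 607 and 262 TPM in DS and 3.89, 2.03 and 2.05 TPM in CK. DN14204_c0_g1, a cysteine-rich transmembrane stress tolerance protein, was at 657, 421 and 402 TPM in DS and 3.6, 6.75 and 2.15 TPM in CK. A second nudix hydrolase, NUDT4 (DN15535_c0_g1), was already abundant in watered leaves and rose by a log2 fold change of 3.64, with 924, 1664.5 and 1089.1 TPM in DS and 96.4, 89.2 and 97.5 TPM in CK. AGP16 (DN12749_c0_g1), a short arabinogalactan peptide of the cell surface, was at 343, 442 and 397 TPM in DS and 8.08, 14.3 and 13.9 TPM in CK.

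The largest decreases were smaller in size than the largest increases. DN13357_c0_g1, annotated as MTD2, was at 0.91, 3 and 3.55 TPM in DS and 87.3, 64.5 and 116 TPM in CK, a log2 fold change of -4.75. 3AT1 (DN23805_c0_g4), an acyltransferase that decorates anthocyanins, was at 0.72, 0.49 and 0.57 TPM in DS and 37.1, 53.2 and 35.8 TPM in CK. The RW libraries held 0, 0.94 and 0.32 TPM of 3AT1. MAKR6 (DN19535_c0_g2), a probable membrane-associated kinase regulator, was at 18.9, 3.14 and 20.4 TPM in DS and 223, 126 and 173 TPM in CK. DRM1 (DN21447_c0_g1), a dormancy-associated protein, was the most abundant of these in watered leaves, with 118, 53.3 and 47.5 TPM in DS and 1747.8, 839 and 1786.5 TPM in CK. BBD1 (DN16658_c0_g1), a bifunctional nuclease, was at 60.9, 28.3 and 42.4 TPM in DS and 349, 324 and 391 TPM in CK. DS replicate 2 held the lowest DS value of 3AT1, MAKR6 and BBD1.

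**Figure D2:**
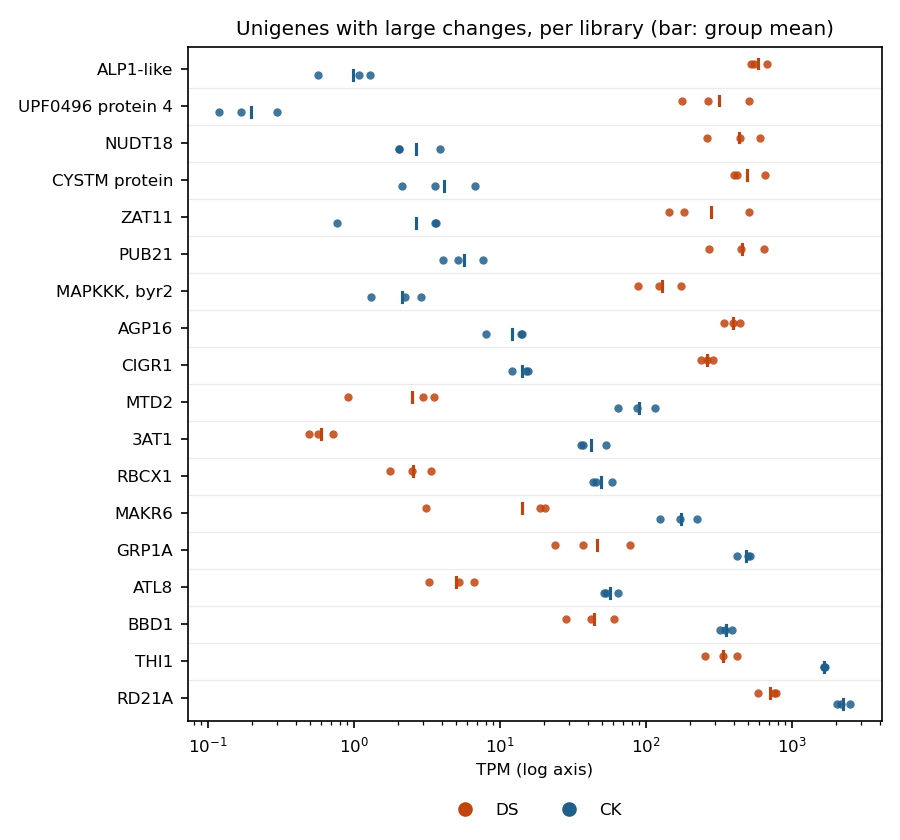
TPM on a log axis in each DS library (orange) and each CK library (blue) for 18 of the named unigenes, with group means as bars. The 9 upper unigenes sit higher in all 3 DS libraries and the 9 lower ones sit higher in all 3 CK libraries.

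The circadian clock unigenes divided by time of action. Of 9 tested unigenes of LHY and the REVEILLE family, which act around dawn, 4 rose (44.4%, against 2.39% of all tested) and 0 fell. Of 24 tested day and evening components, 0 rose and 10 fell (41.7%, against 2.57%). At an unadjusted limma p under 0.05, 5 rose and 0 fell in the morning list, and 0 rose and 14 fell in the day and evening list. LHY (DN25317_c1_g1), a repressor of evening genes, was at 322, 313 and 432 TPM in DS and 41, 24.6 and 33.2 TPM in CK, a log2 fold change of 3.41 (limma adjusted p = 5.30e-05). REVEILLE 8 (DN20351_c0_g1), which in Arabidopsis activates evening-phased genes, was at 182, 222 and 178 TPM in DS and 38.1, 20.6 and 38.4 TPM in CK. RVE7 (DN24728_c2_g1) was at 311, 261 and 322 TPM in DS and 146, 88.3 and 112 TPM in CK, and this call was lost in 5 refits. The remaining 5 unigenes of the family, RVE1, RVE5 and RVE6 among them, had log2 fold changes between -0.12 and 0.47. The morning count was 2 without CK replicate 2 or 3 or any DS replicate.

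The pseudo-response regulators, which repress LHY in turn during the day, divided by member. APRR5 (DN22738_c0_g1) was at 11.5, 5.33 and 7.98 TPM in DS and 47.4, 57.2 and 65.8 TPM in CK, and PRR37 (DN25771_c0_g1), annotated as an APRR7-type protein, was at 33.6, 23.8 and 19.1 TPM in DS and 81.1, 117 and 102 TPM in CK. APRR1 (DN25585_c1_g2), the TOC1 regulator, was at 0.93, 0.89 and 1.34 TPM in DS and 6.75, 9.14 and 6.83 TPM in CK, and its call was lost in 1 refit. APRR9 (DN19544_c0_g2) was at 17, 10.4 and 14.5 TPM in DS and 14.3, 12.4 and 12.9 TPM in CK, values that overlapped. A unigene of each part of the evening complex fell. ELF4 (DN15036_c0_g1) was at 9.92, 8.14 and 4.1 TPM in DS and 96, 81.3 and 38.2 TPM in CK. ELF3 (DN21601_c0_g1) was at 5.69, 5.4 and 4 TPM in DS and 18.8, 16.9 and 19.2 TPM in CK. LUX (DN23704_c0_g1) was at 6.07, 3.16 and 5.08 TPM in DS and 14.6, 21 and 21.1 TPM in CK. Their log2 fold changes were -3.09, -1.69 and -1.80 for ELF4, ELF3 and LUX.

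The blue-light receptor ADO3 (DN21252_c0_g1), an F-box protein that controls flowering time, was at 5.17, 1.57 and 1.66 TPM in DS and 18.9, 38.8 and 30.4 TPM in CK. Its partner GIGANTEA (GI, DN25177_c1_g1) was at 43.9, 34.6 and 22.7 TPM in DS and 51.7, 75.3 and 63.9 TPM in CK. The GI libraries did not overlap, but the log2 fold change of -0.93 had a limma adjusted p of 0.0849 and was not called. BOA (DN21160_c0_g1), a relative of LUX, was at 9.29, 6.35 and 6.26 TPM in DS and 12, 17.7 and 15.1 TPM in CK and was not called either (limma adjusted p = 0.0534). The median log2 fold change of the day and evening list was -1.10 as deposited and -0.92 under median-of-ratios scaling, with 9 lower calls. Leaving out any library gave between 7 and 12 lower calls, and 6 of the 10 held in all 11 refits. Summed TPM of the day and evening list was 521, 405 and 484 in DS and 866, 869 and 954 in CK, while that of the morning list was 969, 940 and 1091.2 in DS and 380, 231 and 296 in CK. Neither sum overlapped, and the exact two-sided permutation test gave p = 0.1 for each, the smallest that 3 against 3 libraries allow. Many of the 119 functional lists also had sums without overlap. Non-overlap of a sum, here and below, is therefore not particular to the list named. Whether the hour of harvest differed between the groups was not tested, since that hour is not given.

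**Figure D3:**
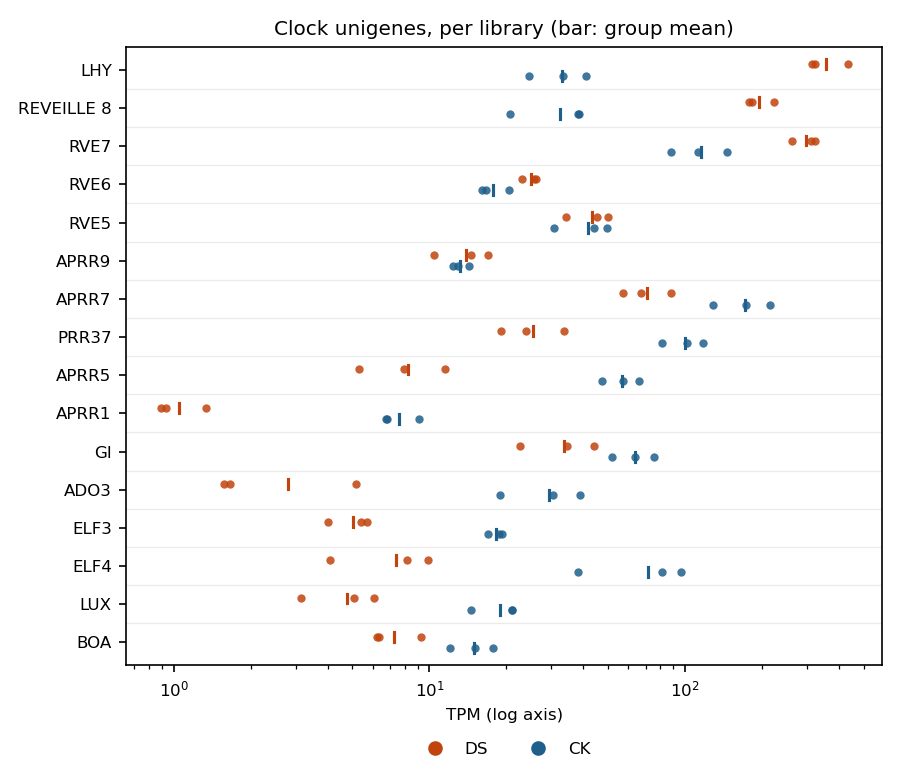
TPM on a log axis of 16 clock unigenes in each DS library (orange) and each CK library (blue), with group means as bars. LHY and REVEILLE 8 lie higher in every DS library, APRR7, PRR37, APRR5, APRR1, ADO3, ELF3, ELF4 and LUX lie lower in every DS library, and RVE5 and APRR9 overlap.

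Some known outputs of the clock also changed. Glycine-rich RNA-binding proteins of the GRP1A type, which in Arabidopsis cycle under clock control, fell in 3 abundant unigenes. The family as a whole was not counted. DN19820_c0_g1 was at 208, 65.2 and 102 TPM in DS and 792, 1605.3 and 1393.5 TPM in CK, DN26207_c0_g1 at 78, 37.3 and 23.9 TPM in DS and 505, 422 and 521 TPM in CK, and DN17754_c1_g1 at 77, 37.7 and 37.2 TPM in DS and 289, 376 and 413 TPM in CK. Of 35 Dof factors, 6 rose (17.1%, against 2.39% of all tested) and 0 fell, with 7 and 7 at an unadjusted limma p under 0.05. Of those 6, 5 are cyclic Dof factors (CDF), repressors of flowering genes that Arabidopsis degrades through GI and ADO-type proteins. CDF2 (DN19901_c0_g1) was at 8.91, 12.5 and 11.3 TPM in DS and 0.07, 1.08 and 0.49 TPM in CK, and CDF3 (DN19182_c0_g1) at 20, 28.4 and 17 TPM in DS and 2.7, 3.13 and 1.81 TPM in CK. The Dof count was between 4 and 6 without any library.

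The B-box factors, zinc finger proteins of light signalling, moved both ways. Of 31, 7 were higher and 5 lower (22.6% and 16.1%, against 2.39% and 2.57% of all tested). Of these calls, 5 higher and 1 lower held in all 11 refits. The lower count was 1 without CK replicate 3, 2 when any DS replicate or CK replicate 2 was left out, 3 without CK replicate 1, RW replicate 2 or RW replicate 3, 3 under median-of-ratios scaling and 2 under quantile normalization. BBX24 (DN16110_c1_g1), a negative regulator of light responses in seedlings, was at 1306.1, 1170.3 and 1132.5 TPM in DS and 244, 118 and 194 TPM in CK, which made it the most abundant unigene of the list. BBX25 (DN21502_c0_g4) was at 537, 492 and 521 TPM in DS and 108, 55.4 and 93.1 TPM in CK. Both were tightly grouped in DS. COL9 (DN24123_c0_g1), a CONSTANS-like member, was at 4.79, 5.82 and 3.31 TPM in DS and 18.3, 38.8 and 32.3 TPM in CK. RPT3 (DN23079_c1_g3), a scaffold of phototropin signalling, was at 11.4, 7.66 and 7.24 TPM in DS and 64.5, 37.9 and 39.3 TPM in CK. Taken as a block, the clock and light lists had 13 higher and 20 lower calls among 113 unigenes. These were 11.5% and 17.7%, against 2.39% and 2.57% of all tested. The block had 7 and 9 without CK replicate 3, 8 and 11 without CK replicate 2, 8 and 13 without DS replicate 1, 7 and 11 without DS replicate 2, 8 and 12 without DS replicate 3, and 8 and 17 without RW replicate 3.

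Among chloroplast lists, the 59 photosystem and electron transport subunits had 0 higher and 3 lower calls (5.08% lower, against 2.57% of all tested), with 2 and 18 at an unadjusted limma p under 0.05. The lower count was 0 without DS replicate 2 or CK replicate 3, 1 without DS replicate 1, CK replicate 1, CK replicate 2 or RW replicate 1, and 2 without RW replicate 3 and under either scaling. The 84 plastid ribosomal proteins had 0 calls in either direction, with 0 higher and 2 lower at an unadjusted limma p under 0.05. Light-harvesting proteins summed to 30335, 16756.4 and 42438.2 TPM in DS and 52019.9, 41457.3 and 62658.4 TPM in CK, values that overlapped (exact two-sided permutation p = 0.2). SEP2 (DN13880_c0_g1), a stress-enhanced relative of the light-harvesting proteins, rose, with 147, 217 and 121 TPM in DS and 42.8, 29.6 and 31 TPM in CK. An early light-inducible protein (DN23929_c0_g1), thought to bind chlorophyll freed under stress, was at 823, 2972.1 and 674 TPM in DS and 111, 147 and 82.7 TPM in CK, and its call was lost in 1 refit. Mesophyll markers, among them rubisco small subunits and light-harvesting proteins, were abundant in every library. They summed to 50106.9, 32298.4 and 92725 TPM in DS and 67181.7, 74186.2 and 92108.9 TPM in CK. This shows green tissue in each library but does not measure the mix of its cell types. Phloem markers summed to 2307.8, 3663.3 and 928 TPM in DS and 7738.3, 1952.3 and 3970.6 TPM in CK, values that overlapped.

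Some carotenoid and chlorophyll enzymes changed, in both directions. PSY (DN17111_c0_g3), phytoene synthase, the first committed enzyme of carotenoid synthesis, was at 89.8, 75.8 and 128 TPM in DS and 21.8, 14.2 and 13.7 TPM in CK. CCD4 (DN25600_c0_g1), which cleaves carotenoids, was at 48.6, 20 and 58.3 TPM in DS and 371, 224 and 424 TPM in CK, and a second CCD4 unigene (DN21662_c1_g2) fell by 3.23 on the log2 scale. Beta-carotene hydroxylase (CA2, DN16920_c0_g1), which leads to the xanthophylls, was at 112, 92.1 and 116 TPM in DS and 37.2, 42.6 and 28.9 TPM in CK. DS replicate 2 held the lowest DS value of PSY, of CCD4 and of CA2. The carotenoid list had 4 higher and 3 lower calls among 39 unigenes (10.3% and 7.69%, against 2.39% and 2.57% of all tested). The higher count was 2 when DS replicate 1, DS replicate 2, CK replicate 2 or CK replicate 3 was left out. Protochlorophyllide reductase (3PCR, DN21469_c2_g2), a light-dependent step of chlorophyll synthesis, was at 58.9, 28 and 78.6 TPM in DS and 414, 302 and 551 TPM in CK. SGR (DN20192_c0_g2), the STAY-GREEN protein that starts chlorophyll breakdown, was at 180, 224 and 65.3 TPM in DS and 18.6, 39.4 and 24.4 TPM in CK, and its call was lost in 4 refits. CLH2 (DN21945_c0_g1), a chlorophyllase, was at 15.2, 19.9 and 17.4 TPM in DS and 42.9, 37.7 and 53 TPM in CK.

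The 57 Calvin cycle and photorespiration unigenes had 0 higher and 4 lower calls (7.02% lower, against 2.57% of all tested), with 5 and 6 at an unadjusted limma p under 0.05. The lower count was 2 when DS replicate 1, DS replicate 2, CK replicate 1 or CK replicate 3 was left out and under median-of-ratios scaling, and 1 was higher under that scaling and without CK replicate 2. RBCX1 (DN21907_c0_g1), a rubisco assembly chaperone, was at 3.36, 1.77 and 2.49 TPM in DS and 43.5, 58.9 and 45.5 TPM in CK, a log2 fold change of -3.84 (limma adjusted p = 1.20e-04). The list as a whole summed to 39417.3, 33732.4 and 71083.3 TPM in DS and 29058.1, 42471.5 and 44030.4 TPM in CK, which overlapped. THI1 (DN23734_c1_g1), thiamine thiazole synthase, was at 256, 340 and 422 TPM in DS and a narrow 1652.8, 1683.7 and 1654.8 TPM in CK. The chloroplast lists together had 8 higher and 13 lower calls among 321 unigenes, 6.54% against 4.96% of all tested. They had 6 and 8 without CK replicate 1, 3 and 7 without CK replicate 3, 4 and 8 without DS replicate 1, and 4 and 7 without DS replicate 2.

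Transcription factors were called more often than unigenes in general, with 93 of 853 higher (10.9%, against 2.39% of all tested) and 36 lower (4.22%, against 2.57%). GRAS proteins, a plant family that includes regulators of gibberellin and phytochrome signalling, had 6 of 43 higher (14%, against 2.39% of all tested) and 0 lower. At an unadjusted limma p under 0.05 they had 11 and 3, and 5 of the 6 calls held in all 11 refits. CIGR1 (DN16120_c0_g1) was at 239, 263 and 291 TPM in DS and 15.2, 15.5 and 12.2 TPM in CK, a log2 fold change of 4.12 (limma adjusted p = 1.00e-05). PAT1 (DN21483_c0_g2), named for phytochrome A signalling in Arabidopsis, was at 197, 322 and 283 TPM in DS and 20.8, 18.3 and 21 TPM in CK, and SCL13 (DN24159_c0_g1) at 335, 364 and 464 TPM in DS and 24.9, 34.2 and 18.9 TPM in CK. Summed TPM of the family was 1631.4, 1945.4 and 1847.7 in DS against 600, 743 and 729 in CK.

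Zinc fingers of the ZAT type, transcriptional repressors induced by many stresses, had 5 of 30 higher (16.7%, against 2.39% of all tested) and 0 lower. At an unadjusted limma p under 0.05 they had 7 and 9. ZAT11 (DN22373_c1_g2) was at 184, 507 and 144 TPM in DS and 0.77, 3.67 and 3.62 TPM in CK. ZAT6 (DN19592_c0_g1) was at 417, 670 and 346 TPM in DS and 22.7, 38.5 and 29.2 TPM in CK, and AZF1 (DN21966_c1_g1) at 72.1, 268 and 70.9 TPM in DS and 0.65, 1.88 and 1.07 TPM in CK. In all 3, DS replicate 2 was the highest library. MYC2 (DN25988_c1_g1), the bHLH factor that JAZ proteins repress, was at 301, 382 and 271 TPM in DS and 18.5, 33 and 19.4 TPM in CK. MYB4 (DN19835_c0_g2), named for an Arabidopsis repressor of phenylpropanoid genes, was at 64.5, 155 and 58.6 TPM in DS and 2.46, 0.64 and 0.62 TPM in CK. Among factors that fell, NFYB2 (DN14526_c0_g1), a histone-fold subunit that binds CCAAT boxes, was at 3.6, 1.05 and 6.91 TPM in DS and 24.5, 23.4 and 41.5 TPM in CK. ABF4 (DN22778_c0_g1), a bZIP factor of abscisic acid signalling, was at 11.2, 9.82 and 7.28 TPM in DS and 40.9, 31 and 37.6 TPM in CK. The 43 auxin response factors had 0 calls, with 1 higher and 3 lower at an unadjusted limma p under 0.05. The transcription factor lists together had 64 higher and 16 lower calls without CK replicate 2, 60 and 12 without CK replicate 3, 68 and 23 without DS replicate 1, and 63 and 14 without DS replicate 2.

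Jasmonate lists had 21 unigenes higher (20.8% of their tested unigenes, against 2.39% of all tested) and 2 lower, while the abscisic acid lists had 10 of 126 higher (7.94%) and 4 lower. Without DS replicate 3 the abscisic acid lists had 7 lower. Jasmonate is made from linolenic acid of plastid membranes. The 64 jasmonate synthesis unigenes had 9 higher calls (14.1%) and 1 lower call (1.56%, against 2.57% of all tested). Of the 9, 4 held in all 11 refits, and the median log2 fold change of the list was -0.00. Leaving out DS replicate 1, CK replicate 2 or CK replicate 3 gave 4 higher and 0 lower. Their summed TPM was 11637.6, 9079.1 and 3133.5 in DS and 25734.8, 6101.9 and 13903 in CK, values that overlapped (exact two-sided permutation p = 0.4). FAD7 (DN20970_c1_g1), a plastid desaturase that makes linolenic acid, was at 129, 191 and 112 TPM in DS and 5.48, 5.85 and 3.63 TPM in CK, and it is annotated as the temperature-sensitive form. The other 2 FAD7 unigenes, DN13907_c0_g1 and DN20970_c1_g2, were at 105, 188 and 142 TPM and at 93.6, 139 and 106 TPM in DS, against 97.3, 179 and 122 TPM and 98.8, 149 and 108 TPM in CK, with log2 fold changes of 0.13 and -0.07. Phospholipase A1-Ibeta2 (DN19005_c0_g1), which releases fatty acids from plastid lipids, was at 306, 409 and 169 TPM in DS and 20.9, 20.7 and 15.6 TPM in CK. OPR3 (DN15677_c0_g1), a reductase of the peroxisomal part of the route, was at 52.6, 63 and 19.5 TPM in DS and 4.74, 6.27 and 3.63 TPM in CK. The JAZ repressors summed to 4536.9, 5724.2 and 3095.3 TPM in DS and 931, 1026.8 and 808 TPM in CK. The 19 jasmonate breakdown unigenes had 4 higher calls and 1 lower call (21.1% and 5.26%, against 2.39% and 2.57% of all tested). Of these, 1 higher and 0 lower held in all 11 refits. The higher count was 1 without CK replicate 3, DS replicate 1 or DS replicate 2. CYP94C1, an enzyme of breakdown, is described above with the unigenes near 0 in watered leaves. The jasmonate lists together had 13 higher and 0 lower calls without CK replicate 2, 12 and 0 without CK replicate 3, and 12 and 1 without DS replicate 1. Leaving out CK replicate 1, DS replicate 2, DS replicate 3 or RW replicate 1 also took the lower calls to 1.

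Other lipid enzymes moved as well, and a unigene can belong both to these lists and to those of jasmonate. Of 17 fatty acid desaturases, 4 rose (23.5%, against 2.39% of all tested) and 0 fell, with 4 and 2 at an unadjusted limma p under 0.05. The higher count was 2 when DS replicate 1, DS replicate 2, CK replicate 1 or CK replicate 3 was left out. FAD4 (DN20037_c0_g1), which desaturates a fatty acid of plastid phosphatidylglycerol, was at 156, 127 and 188 TPM in DS and 26, 13.7 and 16.2 TPM in CK. NPC1 (DN24355_c0_g1), a non-specific phospholipase C, fell, with 14.4, 13.7 and 10.4 TPM in DS and 38, 39.2 and 41.8 TPM in CK. The lipid and cuticle lists together had 15 higher and 14 lower calls among 288 unigenes (5.21% and 4.86%, against 2.39% and 2.57% of all tested). They had 6 and 12 without CK replicate 1, 11 and 4 without CK replicate 2, 6 and 5 without CK replicate 3, 8 and 9 without DS replicate 1, 6 and 4 without DS replicate 2, 13 and 8 without RW replicate 3, and 19 and 9 under median-of-ratios scaling.

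MAP kinase cascades, in which kinases activate each other in series, had 7 of 56 unigenes higher and 1 lower. These were 12.5% and 1.79%, against 2.39% and 2.57% of all tested. MPK3 (DN20652_c0_g2), the kinase at the end of a stress cascade in Arabidopsis, was at 169, 286 and 263 TPM in DS and 42.3, 60.3 and 42.2 TPM in CK. DN15960_c0_g1, a kinase of the first tier whose closest entry is byr2, was at 174, 89 and 123 TPM in DS and 2.87, 2.23 and 1.32 TPM in CK. MEKK1 (DN23435_c0_g1), also of the first tier, was at 173, 491 and 72.3 TPM in DS and 4.95, 9.67 and 8.07 TPM in CK, with a wide spread in DS. The other 3 MEKK1 unigenes had log2 fold changes of 0.54, 0.40 and -0.38 and were not called. NTF3 (DN20803_c0_g1), the member that fell, was at 16.1, 13.1 and 13.4 TPM in DS and 34.2, 34.1 and 34.9 TPM in CK.

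Calcium sensors decode the calcium signals that stress raises in the cytosol. The 73 calmodulins and calmodulin-like sensors had 12 higher and 6 lower calls (16.4% and 8.22%, against 2.39% and 2.57% of all tested). At an unadjusted limma p under 0.05 they had 18 and 14, and 7 higher and 3 lower calls held in all 11 refits. CAM-1 (DN20306_c1_g5), a calmodulin, was at 1647.9, 1697.3 and 1325.3 TPM in DS and 550, 590 and 532 TPM in CK. IQM4 (DN24282_c0_g1), which carries a calmodulin-binding IQ motif, was at 163, 270 and 260 TPM in DS and 19.9, 33.8 and 30.6 TPM in CK. CIPK12 (DN18216_c0_g4), a kinase that calcineurin B-like sensors bind, was at 258, 199 and 223 TPM in DS and 74.9, 43.8 and 67.6 TPM in CK. CAM-1 was the most abundant of these 3 in both groups. CRK2 (DN16650_c1_g1), a cysteine-rich receptor-like kinase, was at 250, 201 and 257 TPM in DS and 48.5, 14.7 and 47.6 TPM in CK. The 111 cysteine-rich receptor kinases had 2 higher and 2 lower calls (3.6%, against 4.96% of all tested). At an unadjusted limma p under 0.05 they had 5 and 22, and 1 higher and 0 lower calls held in all 11 refits. The kinase and calcium lists together had 45 higher and 17 lower calls among 900 unigenes (5% and 1.89%, against 2.39% and 2.57% of all tested). They had 27 and 16 without CK replicate 1, 28 and 9 without CK replicate 2, 23 and 5 without CK replicate 3, 27 and 9 without DS replicate 1, 26 and 6 without DS replicate 2, 39 and 11 without RW replicate 1, and 40 and 11 without RW replicate 3. Median-of-ratios scaling gave 57 and 9, and quantile normalization 50 and 10.

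The defence lists together had 14 higher and 14 lower calls among 883 unigenes (3.17%, against 4.96%). The 728 disease resistance proteins with a nucleotide-binding site had 9 higher and 4 lower calls (1.79%), and the 73 chitinases and beta-1,3-glucanases 5 and 6 (15.1%). The lower count of the chitinases and glucanases was 0 without DS replicate 1, 1 without DS replicate 2 or CK replicate 3, and between 2 and 7 without each of the other libraries. CHI4 (DN15651_c0_g1), an endochitinase, was at 145, 188 and 181 TPM in DS and 8.51, 14.1 and 8.49 TPM in CK. At4g33300 (DN25741_c1_g3), a disease resistance protein with a nucleotide-binding site, was at 296, 390 and 526 TPM in DS and 70.1, 135 and 86.2 TPM in CK. The 53 pathogenesis-related proteins had 0 higher and 3 lower calls (5.66% lower, against 2.57% of all tested), with 3 and 13 at an unadjusted limma p under 0.05. The lower count was 0 without CK replicate 3, 2 without DS replicate 1, 3 without RW replicate 2 and 1 without each of the other libraries, and DS replicate 3 left out gave 1 higher. The defence lists had 11 higher and 5 lower calls without CK replicate 1, 15 and 5 without CK replicate 2, 8 and 1 without CK replicate 3, 9 and 2 without DS replicate 1, 10 and 3 without DS replicate 2, 14 and 5 without DS replicate 3, 15 and 7 without RW replicate 1, and 12 and 5 without RW replicate 3. Median-of-ratios scaling gave 16 and 6, and quantile normalization 17 and 7.

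In protein turnover, the 540 F-box proteins, which choose substrates for ubiquitin ligases, had 8 higher and 13 lower calls (3.89%, against 4.96%). Leaving out 1 library gave 5 to 11 higher and 5 to 13 lower, the fewest lower without DS replicate 2. The 67 proteasome subunits had 0 calls, with 1 higher and 6 lower at an unadjusted limma p under 0.05. Of 75 U-box ligases, 10 rose (13.3%, against 2.39% of all tested) and 0 fell, with 14 and 7 at an unadjusted limma p under 0.05. PUB21 (DN15238_c0_g1) was at 451, 647 and 273 TPM in DS and 4.08, 5.18 and 7.68 TPM in CK, a log2 fold change of 6.06 (limma adjusted p = 2.06e-05). PUB22 (DN13541_c0_g2), which limits drought and immune responses in Arabidopsis, was at 78.1, 191 and 63.7 TPM in DS and 0.3, 0.39 and 1.48 TPM in CK. Summed TPM of the U-box list was 1545.3, 2010.2 and 1252.2 in DS and 696, 821 and 790 in CK, without overlap. RING ligases moved both ways, with 9 of 154 higher and 10 lower (5.84% and 6.49%, against 2.39% and 2.57% of all tested). The lower count was 4 to 6 when DS replicate 1, DS replicate 2, CK replicate 2 or CK replicate 3 was left out. ATL6 (DN15779_c0_g2) was at 44.6, 81.2 and 57.5 TPM in DS and 5.73, 12.8 and 10.2 TPM in CK. ATL8 (DN19039_c0_g1) was at 6.62, 3.28 and 5.25 TPM in DS and 53.8, 64.3 and 52 TPM in CK.

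The 36 cysteine proteases had 0 higher and 4 lower calls (11.1% lower, against 2.57% of all tested), with 1 and 12 at an unadjusted limma p under 0.05. The lower count was 2 without DS replicate 1, DS replicate 2 or CK replicate 3, and 1 was higher without DS replicate 3 and under median-of-ratios scaling. RD21A (DN22347_c0_g1), a papain-type protease of the vacuole first described in dehydrated Arabidopsis, was at 754, 777 and 589 TPM in DS and 2055.6, 2525.1 and 2165.5 TPM in CK. The 47 serine carboxypeptidases had 0 higher and 5 lower calls (10.6% lower), with 1 and 8 at an unadjusted limma p under 0.05, and 3 lower without DS replicate 2 or CK replicate 2. The 40 autophagy proteins had 0 higher and 3 lower (7.5%), with 0 and 12 at an unadjusted limma p under 0.05, and 2 lower without any single DS replicate, CK replicate 2, CK replicate 3 or RW replicate 3. ATG13B (DN24696_c0_g1), a regulator of the kinase that starts autophagy, was at 8.07, 9.91 and 8.2 TPM in DS and 31.2, 28.2 and 24.1 TPM in CK. ATG8H (DN23642_c0_g1), a ubiquitin-like protein of the autophagosome membrane, was at 48.9, 24.6 and 43.6 TPM in DS and 156, 112 and 118 TPM in CK. RD21A, ATG13B and ATG8H all fell. The 58 aspartic proteases had 6 higher and 4 lower calls (10.3% and 6.9%, against 2.39% and 2.57% of all tested). They kept 5 higher and 0 lower calls in all 11 refits. Their lower count was 0 without DS replicate 2, CK replicate 2 or CK replicate 3, 1 without DS replicate 1 or CK replicate 1 and under median-of-ratios scaling, 2 without DS replicate 3 and 8 without RW replicate 2. PCS1 (DN26158_c1_g3), an aspartic protease, rose, with 264, 295 and 219 TPM in DS and 50.8, 75.8 and 58.3 TPM in CK. The turnover lists together had 33 higher and 39 lower calls among 1016 unigenes (3.25% and 3.84%, against 2.39% and 2.57% of all tested). They had 28 and 20 without CK replicate 2, 25 and 19 without CK replicate 3, 28 and 25 without DS replicate 1, 26 and 17 without DS replicate 2, and 32 and 25 without DS replicate 3.

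The 4 osmolyte lists together had 10 higher and 4 lower calls among 69 unigenes (14.5% and 5.8%, against 2.39% and 2.57% of all tested). Of these, 5 and 2 held in all 11 refits. Summed TPM overlapped for raffinose and galactinol synthesis (DS mean 166, CK mean 162) and for proline metabolism (292 and 257). It did not overlap for trehalose synthesis (436 and 271). The inositol list had 4 of 17 higher and 1 lower (23.5% and 5.88%). It summed to 3505.6, 4324.4 and 4267.5 TPM in DS and 2205.1, 1811.4 and 1061.1 TPM in CK. The lower call was lost when CK replicate 3, DS replicate 1 or DS replicate 2 was left out. Inositol-3-phosphate synthase makes the precursor of inositol, which also feeds the raffinose sugars. Its unigene INPS1 (DN23532_c0_g1) was at 449, 549 and 647 TPM in DS and 190, 144 and 109 TPM in CK, and a second INPS1 unigene (DN25938_c0_g1) rose by a log2 fold change of 1.73. PLT5 (DN23421_c0_g1), a transporter of polyols including inositol, was at 1562, 1197.6 and 1014.4 TPM in DS and 210, 143 and 230 TPM in CK. PLT5 was more abundant than either INPS1 unigene in DS. SWEET2 (DN14733_c0_g3), a sugar transporter of the vacuole membrane in Arabidopsis, was at 199, 69.7 and 114 TPM in DS and 27.3, 19.9 and 22.6 TPM in CK. DN17588_c0_g2, an amino acid transporter of the AVT1I type, was at 324, 253 and 66.7 TPM in DS and 5.17, 8.76 and 9.33 TPM in CK. NPF1.2 (DN26127_c1_g1), a nitrate transporter, was at 249, 186 and 126 TPM in DS and 61.7, 33.8 and 27.2 TPM in CK. For DN17588_c0_g2 and NPF1.2, DS replicate 3 was the lowest DS library.

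Members that fell included AAP5 (DN12851_c1_g2), an amino acid permease, at 1.83, 3.1 and 3.02 TPM in DS and 15.9, 12.7 and 13.4 TPM in CK. TPK5 (DN24832_c0_g3), a potassium channel, was at 12.4, 14.9 and 19.1 TPM in DS and 44.7, 41.7 and 50.9 TPM in CK. The 35 aquaporins, which pass water through membranes, had 0 higher and 1 lower call (2.86% lower, against 2.57% of all tested). At an unadjusted limma p under 0.05 they had 2 and 6. The transport lists together had 23 higher and 18 lower calls among 662 unigenes (3.47% and 2.72%, against 2.39% and 2.57% of all tested). They had 17 and 11 without CK replicate 1, 11 and 7 without CK replicate 2, 9 and 5 without CK replicate 3, 14 and 8 without DS replicate 1, 14 and 6 without DS replicate 2, 26 and 11 without DS replicate 3, and 19 and 11 without RW replicate 3. Median-of-ratios scaling gave 35 and 12, and quantile normalization 25 and 11.

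In specialised metabolism, UDP-glycosyltransferases attach sugars to hormones and secondary compounds. Of 246, 19 were higher and 10 lower (7.72% and 4.07%, against 2.39% and 2.57% of all tested). Of these calls, 7 higher and 0 lower held in all 11 refits. Leaving out 1 library gave 9 to 19 higher, the lowest without CK replicate 3, and 1 to 10 lower, with 1 without CK replicate 1, CK replicate 3 or DS replicate 2. AOG (DN15076_c0_g3), annotated as the enzyme that glucosylates abscisic acid, was at 103, 71.1 and 89.6 TPM in DS and 5.78, 17.9 and 9.8 TPM in CK. UGT84B2 (DN20760_c0_g2) was at 302, 199 and 363 TPM in DS and 60, 28.8 and 44.3 TPM in CK. CSE (DN17040_c1_g2), caffeoylshikimate esterase of the lignin route, was at a narrow 112, 114 and 111 TPM in DS and 29.4, 14.9 and 21.4 TPM in CK. These 3 rose. CYP75B2 (DN22788_c0_g3), whose closest entry is a flavonoid hydroxylase, was at 12.4, 7.16 and 7.66 TPM in DS and 62.1, 57.7 and 56.9 TPM in CK. The 50 isoflavonoid unigenes had 0 calls, with 2 higher and 5 lower at an unadjusted limma p under 0.05. The specialised lists together had 32 higher and 19 lower calls among 660 unigenes (4.85% and 2.88%, against 2.39% and 2.57% of all tested). They had 23 and 9 without CK replicate 1, 15 and 7 without CK replicate 3, 19 and 12 without DS replicate 1, 18 and 8 without DS replicate 2, and 27 and 12 without DS replicate 3. Quantile normalization gave 31 and 12.

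Growth hormone lists had 9 higher and 14 lower calls among 242 unigenes (3.72% and 5.79%, against 2.39% and 2.57% of all tested). GA2OX2 (DN19390_c0_g4), which inactivates gibberellins, was at 6.77, 7.78 and 6.8 TPM in DS and 0, 0.29 and 0.18 TPM in CK. SAUR32 (DN14463_c0_g1), of the auxin-induced SAUR family, was at 9.35, 8.78 and 6.57 TPM in DS and 57.7, 32.8 and 39.7 TPM in CK. ROT3 (DN23683_c1_g1), a cytochrome P450 of brassinosteroid synthesis, was at 13, 9.78 and 7.9 TPM in DS and 43.4, 29.3 and 38.9 TPM in CK. BKI1 (DN18822_c0_g3), an inhibitor of the brassinosteroid receptor, was at 2.87, 0.67 and 2.29 TPM in DS and 16.9, 12.1 and 19.3 TPM in CK. A synthesis enzyme and an inhibitor of the same hormone pathway both fell. The lists had 4 higher and 8 lower calls without CK replicate 2, 4 and 5 without CK replicate 3, 6 and 9 without DS replicate 1, 6 and 6 without DS replicate 2, and 5 and 10 without DS replicate 3.

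The cell wall lists had 15 higher and 34 lower calls among 415 unigenes (3.61% and 8.19%, against 2.39% and 2.57% of all tested), of which 6 higher and 1 lower held in all 11 refits. Laccases, secondary wall cellulose synthases and xylem proteins, which build the thick walls of water-conducting cells, had 0 higher and 19 lower calls among 56, with 2 and 37 at an unadjusted limma p under 0.05. None of the 19 held in all 11 refits, and leaving out DS replicate 1, DS replicate 2, CK replicate 2 or CK replicate 3 gave a count of 0. It was 23 without DS replicate 3, 16 without CK replicate 1, 4 without RW replicate 3 and 7 under median-of-ratios scaling. Their summed TPM was 258, 130 and 543 in DS and 895, 2764.5 and 2019.5 in CK, without overlap and with a wide spread in each group. CTL2 (DN16029_c0_g1), a chitinase-like protein of secondary walls, was at 20.3, 6.48 and 40.5 TPM in DS and 98.6, 305 and 198 TPM in CK, and its call was lost in 5 refits. All 48 tested xylem markers are members of this list and are no separate measure of it, with 18 lower, 0 higher and sums of 189, 74.4 and 474 TPM in DS and 795, 2552.5 and 1877.8 TPM in CK. Whether the share of xylem cells differed between the groups was not tested. GATL9 (DN18777_c0_g3), a galacturonosyltransferase-like protein, rose, with 58, 112 and 52.7 TPM in DS and 1.41, 3.75 and 3.39 TPM in CK. The cell wall lists had 7 and 29 calls without CK replicate 1, 11 and 2 without CK replicate 2, 7 and 3 without CK replicate 3, 7 and 7 without DS replicate 1, 8 and 2 without DS replicate 2, and 10 and 14 without RW replicate 3. Median-of-ratios scaling gave 17 and 15, and quantile normalization 16 and 18.

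The translation and division lists had 2 higher and 7 lower calls among 896 unigenes (0.223% and 0.781%, against 2.39% and 2.57% of all tested). Of 364 cytosolic ribosomal proteins, 1 rose and 0 fell, with 17 and 7 at an unadjusted limma p under 0.05, and their median log2 fold change was -0.01 against -0.19 over all tested unigenes. The 150 translation factors had 0 calls, with 3 higher and 14 lower at an unadjusted limma p under 0.05. The 136 cyclins and DNA replication proteins had 0 higher and 3 lower calls (2.21% lower, against 2.57% of all tested). At an unadjusted limma p under 0.05 they had 2 and 28. Their lower count was 0 without CK replicate 2 or CK replicate 3 and under median-of-ratios scaling. Across the translation and division lists, leaving out 1 library gave 0 to 1 higher and 1 to 10 lower, with 3 without DS replicate 2 or CK replicate 3, 1 without CK replicate 2 and 10 without RW replicate 2, and median-of-ratios scaling gave 2 and 3. The 628 retrotransposon and reverse transcriptase unigenes had 14 higher and 5 lower calls (2.23% and 0.796%), with 5 and 1 without DS replicate 2 or CK replicate 3 and 13 and 10 without RW replicate 2.

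**Figure D4:**
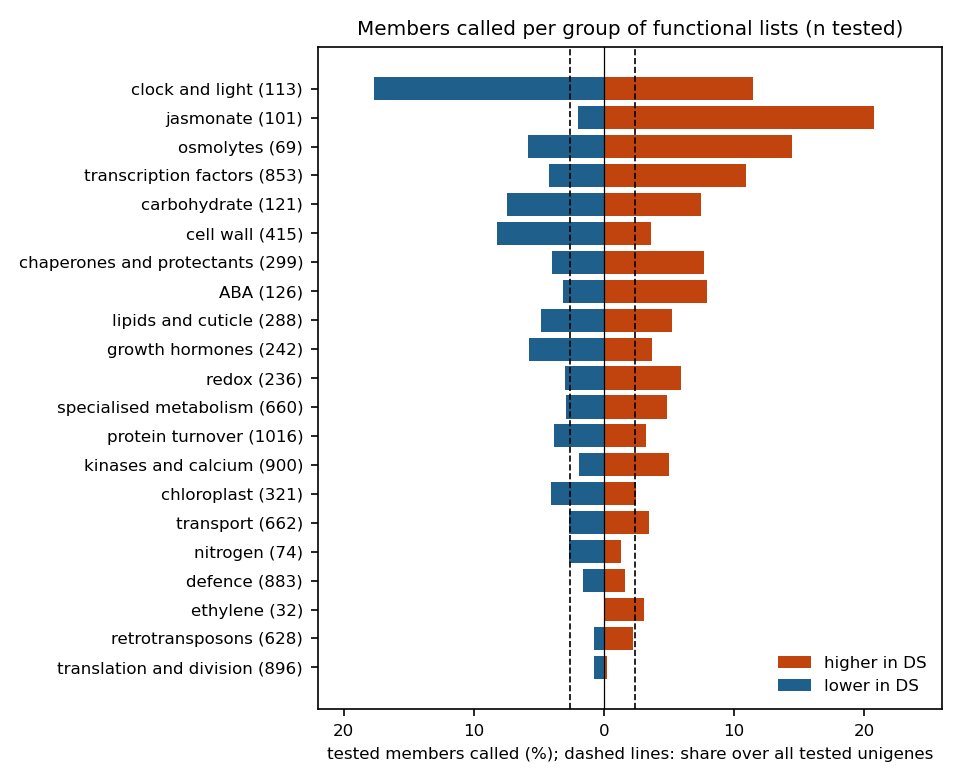
Percentage of tested unigenes called higher in DS (orange bars) or lower in DS (blue bars) in each block of functional lists, drawn to the right and left of 0, with the shares over all tested unigenes as dashed lines. Jasmonate has the highest share called higher (20.8%), clock and light the highest share called lower (17.7%), and translation and division the lowest share called higher (0.223%).

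**Figure D5:**
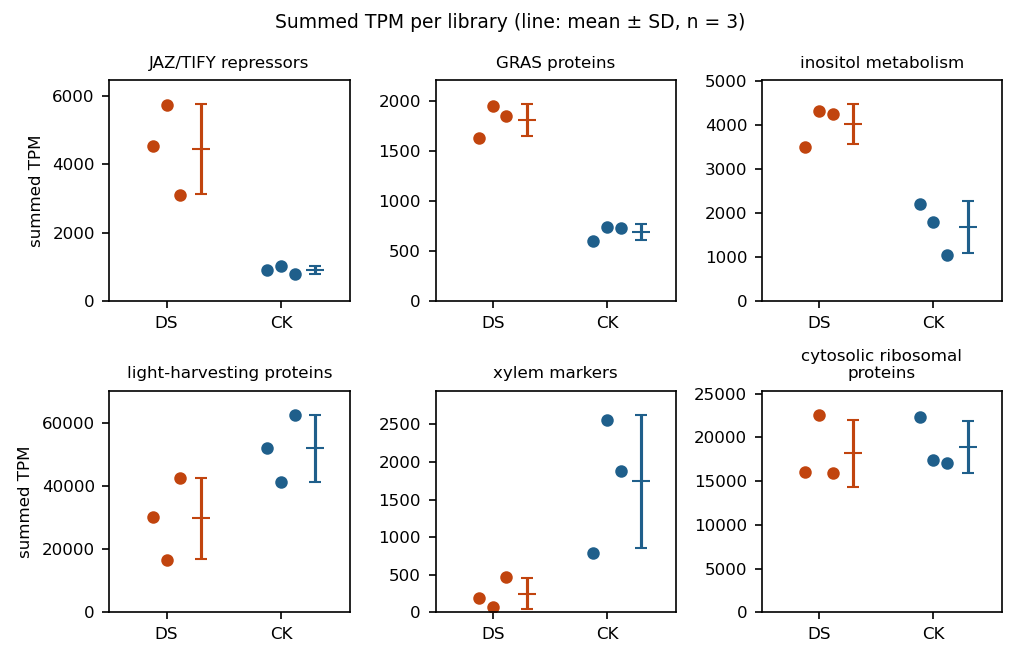
Summed TPM of 5 functional lists and of the xylem markers in each DS library (orange) and each CK library (blue), with group means and SD (n = 3). The JAZ, GRAS and inositol sums lie higher in every DS library, the xylem sum lies lower in every DS library, and the light-harvesting and cytosolic ribosomal sums overlap. Many list sums that are not drawn did not overlap either.

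Some symbols covered unigenes that moved in opposite directions, 23 of the 924 symbols with a call. MYB44, a stress-related MYB factor, was represented by DN13949_c0_g3 at 84.2, 89.3 and 68.6 TPM in DS and 4.63, 11.5 and 5.04 TPM in CK. The neighbouring unigene DN13949_c0_g1, with the same closest entry MYB44, was at 0.83, 0.68 and 1.88 TPM in DS and 4.69, 12.2 and 9.92 TPM in CK, and its call was lost in 4 refits. APF1, an aspartyl protease, showed the same division, with DN22355_c0_g2 at 115, 117 and 208 TPM in DS and 30, 33.5 and 17.7 TPM in CK. DN22355_c0_g1, also APF1, was at 8.03, 5.36 and 7.16 TPM in DS and 13.9, 18.1 and 15.7 TPM in CK, and its call was lost in 6 refits. Unigenes of 1 component can exchange reads.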

How the data were processed

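Leaves of 3 DS, 3 CK and 3 RW libraries were measured by poly(A) RNA sequencing. The authors trimmed reads with Cutadapt, assembled unigenes with Trinity and estimated abundance with Salmon, and deposited TPM values per unigene. The submitters' processing notes list HISAT2 2.0 and also StringTie 1.3.0 without saying what each did. TPM keeps no depth, so no counting interval is given, and 0 columns belonged to other samples. The test took unigenes reaching 1 TPM in 3 or more of the 9 libraries and left out 7919. Values were transformed as log2(TPM + 1) and fitted with limma 3.58.1 (statmod 1.5.0, R 4.3.3) over all 9 libraries, with Benjamini-Hochberg adjustment over all tested unigenes, a threshold of 0.05 and a log2 fold change beyond 1. Summed TPM of a list was compared with an exact two-sided permutation test, which cannot go below 0.1 with 3 against 3 libraries. The scripts were tested on simulated data.

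The members and lists were chosen with earlier results of these data known. Named unigenes were called, described, without overlap, with a group mean of 20 TPM or more in DS or CK, and called in all 11 refits. They were the 12 largest increases and decreases by log2 fold change and by TPM, up to 3 per list with the smallest p and 1 of the rarer direction at 5 TPM or more, and those with primers. Other unigenes, named to complete a list or a family, were chosen after their values were seen. Alternatives were other pseudocounts, filters, scalings, a replicate block, the 6 libraries alone, 1 unigene per component and each library left out.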

Additional observations from a re-analysis of the deposited data

How the results depend on the processing

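Against 1066 higher and 1143 lower calls, an unadjusted limma p under 0.05 with the same minimum fold change gave 2377 higher and 3981 lower. Keeping 1 unigene per Trinity component gave 690 higher, and a pseudocount of 5 gave 667 lower. Leaving out 1 library gave 570 to 1127 higher and 352 to 1290 lower. All functional lists combined had 396 higher and 284 lower calls. Leaving out 1 library gave 222 to 412 higher and 97 to 306 lower in these lists, and median-of-ratios scaling gave 189 lower. Of 237 named unigenes, 24 lost or gained a call in at least 1 setting, and none changed direction. The naming rule preferred calls that held in all 11 refits, and these refits are among the settings. This stability was therefore largely fixed by the choice. The cause of the shifts between settings was not tested.

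DS and CK libraries that share a replicate number had deviations from their group means that correlated at 0.028, -0.009 and 0.035. Libraries with different numbers gave values from -0.078 to 0.049, a range that holds those of a shared number. Deviations from a group mean cancel within the group, which makes these correlations depend on each other. They cannot show whether libraries with the same number were paired. Whether the number marks a shared batch was not tested, since the labels do not say what it stands for. A fit with the replicate number as a block gave 837 higher and 727 lower calls, with 180 lower in the functional lists, and changed the call of 6 named unigenes.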
